A study of Mus musculus with 25 samples.

Results

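Genes of the blood vessel wall and its main growth factor were followed through perigonadal white adipose tissue (pgWAT, the fat pad beside the testis) of mice lacking 1 or all isoforms of ChREBP. The 10 genes were Vegfa, Kdr, Flt1, Tek, Tie1, Pecam1, Cdh5, Emcn, Vwf and Egfl7, taken as every probe that carried one of these names, 10 of the 26394 genes with a probe in the expression table. They had 20 of the 56605 probes on the array and 18 of the 40561 probes in the table, and both probes outside the table belonged to Kdr and gave median raw signals of 21 and 22 against a local background of 15 to 22. A gene with several probes is represented below by the one with the highest mean, and the other probes are given beside it.

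Fat is supplied by a capillary bed that grows and shrinks with the tissue, and endothelial cells line it. VEGF-A, made by adipocytes, stromal cells and macrophages, acts on the endothelial receptors encoded by Kdr (VEGFR2, the main signalling receptor) and Flt1 (VEGFR1, which also exists as a soluble decoy), whereas the angiopoietins act through Tek (TIE2) and its partner Tie1 to stabilise vessels. Pecam1 and Cdh5 encode adhesion molecules of the endothelial junction, Emcn a sialomucin of capillaries and veins, Vwf the clotting factor stored in endothelial granules, and Egfl7 a matrix protein that endothelial cells secrete.

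ChREBP, encoded by Mlxipl, is the carbohydrate-responsive transcription factor of lipid synthesis, and its β isoform starts from an alternative first exon, 1b. Total RNA of pgWAT from male C57BL6/J mice was hybridised to 25 single-colour arrays in 4 groups. The ChREBPβ KO mice (label ChREBPbeta_KO, n = 6) carried a CRISPR/Cas9 deletion of exon 1b and their comparator was ChREBPbeta_WT (n = 7). The total ChREBP KO mice (label ChREBPtotal_KO, n = 5) were Mlxipl-null, lacking the α and β isoforms, with ChREBPtotal_WT (n = 7) beside them. Both deletions were present in every cell type, the endothelium included, and the wild-type mice carried neither. All mice, wild types included, were fasted for 24 h and refed for 18 h with 20% glucose in the drinking water. Age was not given in the labels. Arrays of several groups shared each of the 4 wash batches, which was a term of the fits given below.

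Levels are log2 values after quantile normalisation, so that a difference of 1 is a factor of 2 in signal. All 18 member probes were well above background on all 25 arrays, and no member spot was saturated. In bulk tissue, fewer endothelial cells and less RNA per endothelial cell cannot be told apart.

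Of 3 probes for Mlxipl itself, the highest lay at 15.74 to 16.24 in the total WT arrays and at 14.07 to 14.29 in the total ChREBP KO arrays, without overlap, and fell by 1.77 on the log2 scale (adjusted p = 1.11e-08). A second fell by 0.66 on that scale (adjusted p = 0.00103) and the third differed by 0.08 (adjusted p = 0.695), and where each probe lies relative to the deleted parts was not analysed here. In ChREBPβ KO the 3 probes differed by -0.74, -0.47 and -0.06 in the same order, and none was called (smallest adjusted p 0.116). RNA typical of liver, kidney and epididymis was present in unequal amounts, and its source was not established. The mean of 8 liver genes spanned 13.82 to 16.87 in β WT, 12.35 to 16.39 in ChREBPβ KO, 9.03 to 14.34 in total WT and 8.89 to 9.90 in total ChREBP KO, and none of the 8 was at background in the β groups. One of the 8, Cyp2e1, had a mean level of 17.28 and did not follow the others. It differed by -0.07 between the wild types, where the other liver genes were called lower in the total line. Its part in the liver mean was not tested. The mean of 5 kidney genes was 8.14 to 10.27 on 4 arrays (β WT 1, 3 and 7 and ChREBPβ KO 2) and at most 7.34 on the others. The mean of 3 epididymal genes reached 9.65 on total WT 2. Of these 3 genes only Adam7 varied widely (SE 1.06 between the wild types, against 0.09 for Lcn9 and Rnase10), so that mean rests mainly on 1 gene. Results are therefore also given without these 5 arrays and with the liver mean as a covariate, and both settings were chosen after seeing the data. The liver mean itself differed between the groups, so this covariate can also remove part of a group difference. A value that changes with it cannot be assigned to liver RNA or to the group.

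VEGF-A was measured by its highest probe at 13.16, 13.30 and 13.47 (lowest, median and highest) in β WT and at 13.16, 13.45 and 13.74 in ChREBPβ KO. In total WT it lay at 12.86, 13.29 and 13.70, and the 5 total ChREBP KO arrays read 13.25, 13.53, 13.23, 13.18 and 13.22. The 4 groups overlapped throughout, with 3 of the 6 ChREBPβ KO arrays above the highest β WT array and 1 total ChREBP KO array, replicate 2, above its 4 fellows.

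Kdr, the receptor that carries most of the VEGF-A signal, spanned 12.85 to 13.72 in β WT (median 13.06) and 13.29 to 13.89 in ChREBPβ KO (median 13.45). The single ChREBPβ KO arrays read 13.50, 13.89, 13.32, 13.60, 13.29 and 13.40, all above the β WT mean of 13.18 ± 0.30 (SD, n = 7), although only 1 exceeded the highest β WT array. In total WT Kdr lay between 12.71 and 13.45 (median 13.07), and the total ChREBP KO arrays gave 12.90, 13.45, 12.98, 12.98 and 12.96. Replicate 2 was again the high array of that group.

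Flt1, the second VEGF receptor, was measured at 13.29 to 14.00 (median 13.58) in β WT and 13.52 to 14.19 (median 13.75) in ChREBPβ KO. Total WT arrays fell in a narrower band, 13.47 to 13.72 (median 13.64), and total ChREBP KO arrays read 13.44, 13.87, 13.60, 13.43 and 13.74. No group was separate from its wild type.

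Of the angiopoietin receptors, Tek was 10.09 ± 0.34 in β WT, 10.23 ± 0.21 in ChREBPβ KO, 10.32 ± 0.23 in total WT and 10.24 ± 0.13 in total ChREBP KO (mean ± SD; n = 7, 6, 7 and 5, as for the genes that follow). One β WT array, replicate 8, stood at 10.81 while the other 6 lay between 9.73 and 10.12. Tie1, the partner receptor, averaged 10.76 ± 0.22, 10.89 ± 0.24, 10.93 ± 0.11 and 10.96 ± 0.26 in the same order. Its total ChREBP KO arrays read 10.67, 11.36, 10.83, 10.88 and 11.04.

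Pecam1 averaged 9.75 ± 0.28, 9.82 ± 0.21, 9.92 ± 0.20 and 9.94 ± 0.25 in the 4 groups, and its total ChREBP KO arrays read 9.81, 10.38, 9.86, 9.84 and 9.79. Cdh5, which encodes VE-cadherin, averaged 12.84 ± 0.17, 13.03 ± 0.30, 12.81 ± 0.13 and 12.79 ± 0.19. For both junction genes the ranges of all 4 groups overlapped.

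Emcn averaged 12.49 ± 0.20, 12.67 ± 0.18, 12.63 ± 0.12 and 12.60 ± 0.17. Vwf had the widest spread of the 10 genes, with group means of 12.60 ± 0.47, 12.63 ± 0.44, 12.77 ± 0.41 and 12.83 ± 0.26 and single arrays from 11.95 to 13.36. Its residual SD, after group and wash batch, was 0.44, against 0.17 to 0.27 for the other 9 genes.

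Egfl7, the secreted matrix protein, gave raw signals of 33981.5 to 59630.5, within the range of the scanner. The 6 ChREBPβ KO arrays read 15.83, 16.20, 15.36, 15.82, 15.83 and 15.50, and 4 of them lay above the highest of the β WT arrays, which spanned 15.14 to 15.79 with a median of 15.33. Total WT arrays spanned 14.91 to 15.47 (median 15.32), and the total ChREBP KO arrays read 15.29, 15.65, 15.29, 15.36 and 15.43.

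**Figure D1:**
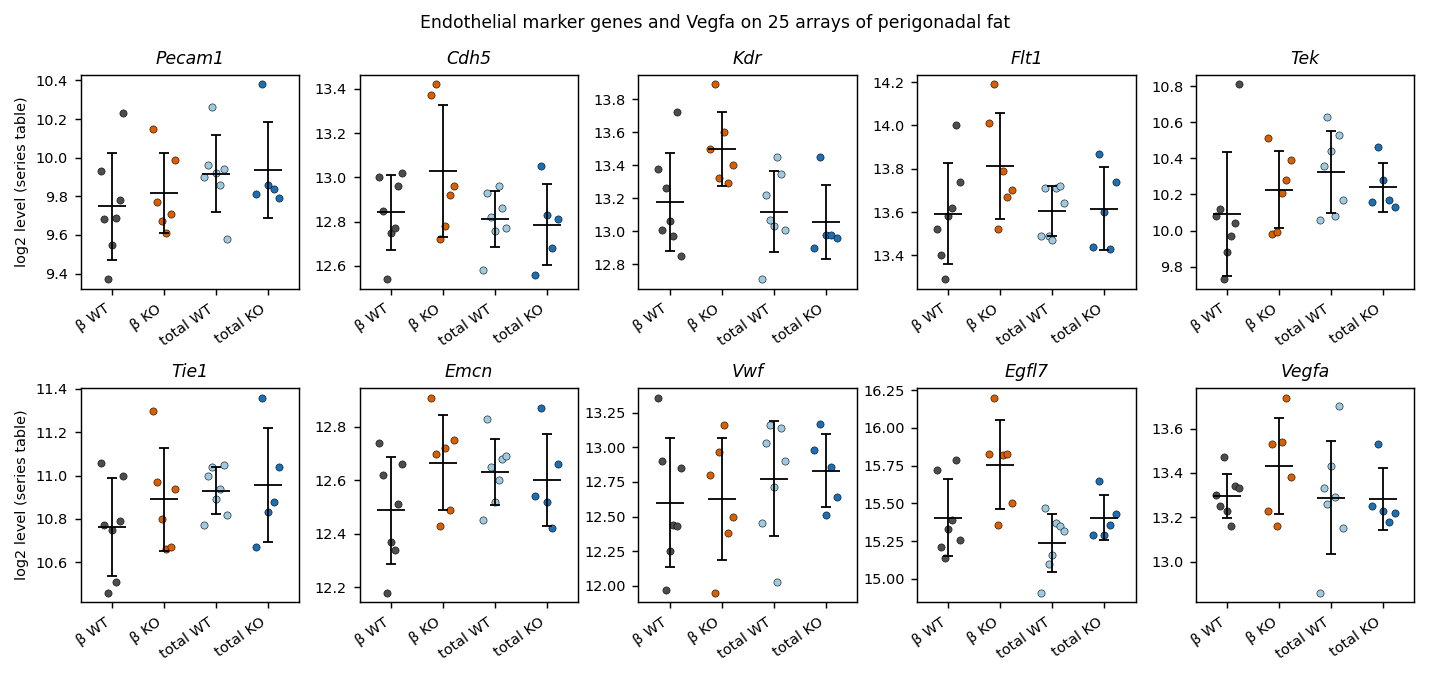
Log2 level (vertical axes) of the 10 genes on each of the 25 arrays, by group (horizontal axis); points are single arrays and bars are the group mean ± SD. The groups overlap in every panel, and for Kdr all 6 ChREBPβ KO arrays lie above the β WT mean.

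To ask whether loss of the β isoform altered these genes, ChREBPβ KO was set against β WT. All 10 fitted differences were positive, but none of the 10 genes passed an adjusted p of 0.05 in the limma fit (smallest adjusted p 0.354), and the share of all probes called in this comparison was itself 0%. At an unadjusted p under 0.05 there were 3 of the 10, Kdr, Flt1 and Egfl7, while 9.02% of all 40561 probes were under that value. None of the 10 separated the groups without overlap, as 0.069% of all probes did. The median difference of the 9 endothelial genes, Vegfa left aside, was 0.19 (0.04 to 0.38), with a median of 0.02 and 58% of differences positive over all probes. The endothelial genes varied together over the arrays, as given below, so their signs within a comparison are not independent.

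Kdr was 0.36 higher in ChREBPβ KO (SE 0.11, 95% interval 0.13 to 0.58, 1.28-fold; limma, adjusted p = 0.354). Within the 4 wash batches, of 1 or 2 arrays a group, its difference was 0.25, 0.89, 0.06 and 0.43. Egfl7 was 0.38 higher (SE 0.11, interval 0.14 to 0.61, 1.3-fold; limma, adjusted p = 0.356), with 0.36, 0.99, 0.06 and 0.34 within batches. For both genes the sign was the same in all 4 batches and batch 2, with a single array on each side, gave the largest value.

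Flt1 differed by 0.24 (SE 0.11, interval 0.02 to 0.46; limma, adjusted p = 0.52) by its highest probe and by 0.01, 0.02 and 0.06 by its other 3 probes. Averaged over its 4 probes the difference was 0.08 (adjusted p = 0.857). Vegfa differed by 0.15 (interval -0.08 to 0.37, adjusted p = 0.737), and its other 3 probes gave 0.12, 0.22 and 0.17. The differences of the other 6 genes were 0.19 for Cdh5 (interval -0.03 to 0.42), 0.19 for Emcn (-0.01 to 0.39), 0.14 for Tie1 (-0.10 to 0.37), 0.13 for Tek (-0.17 to 0.43), 0.06 for Pecam1 (-0.22 to 0.35) and 0.04 for Vwf (-0.44 to 0.52). Over the 10 genes the farthest bound of an interval was 0.61, so that differences larger than that lay outside every interval.

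Without the 5 arrays with a high kidney or epididymal mean, 4 of which belong to this comparison, Kdr differed by 0.49 (limma, adjusted p = 0.341). Egfl7 then differed by 0.43 (adjusted p = 0.492) and Flt1 by 0.17 (adjusted p = 0.84). Slightly negative were 3 genes, Pecam1 at -0.02, Tek at -0.01 and Vwf at -0.01. The liver genes differed in the same comparison by a median of -1.13, with 0 of 8 called. With their mean as a covariate Kdr differed by 0.34 and Egfl7 by 0.30. The part of liver or kidney RNA in the differences that remained was not tested.

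Loss of the α and β isoforms together was asked by total ChREBP KO against total WT. None of the 10 genes was called, where 8.79% of all probes were (5.35% higher and 3.44% lower), and none had an unadjusted limma p under 0.05, where 20.3% of all probes had. The smallest adjusted p was 0.471, for Egfl7, at a difference of 0.18 (interval -0.07 to 0.43). No gene separated the groups, as 6.8% of all probes did. The differences were positive for 5 of the 10 genes, and the median over the 9 endothelial genes was 0.02 (-0.08 to 0.18), the same as the 0.02 over all probes.

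Vegfa differed by -0.0048 (interval -0.24 to 0.23), Kdr by -0.07 (-0.31 to 0.17) and Flt1 by 0.02 (-0.21 to 0.26). Tek gave -0.08 (-0.40 to 0.23), Tie1 0.02 (-0.24 to 0.27), Pecam1 0.02 (-0.28 to 0.31), Cdh5 -0.03 (-0.27 to 0.20), Emcn -0.02 (-0.23 to 0.19) and Vwf 0.06 (-0.44 to 0.57). The intervals of 8 of the 9 endothelial genes stayed within 0.43 of 0 on either side, and that of Vwf reached 0.57. Within wash batches the median over the 9 genes was 0.08, -0.16, 0.02 and 0.04.

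Whether the effect of total loss differed from that of β loss was tested as the difference of both KO effects, total minus β, in the same fit. No member was called, against 3.21% of all probes (1.29% higher and 1.92% lower). The difference was negative for 9 of the 10 genes, with a median of -0.21 (-0.43 to 0.02) over the 9 endothelial genes and 0.00088 over all probes. Kdr had the largest difference, -0.43 (SE 0.16, interval -0.76 to -0.10; limma, adjusted p = 0.186), and it was the only member under an unadjusted 0.05, as 12.8% of all probes were. Kdr was thus not called with all arrays in the main fit, and whether it passed depended on the setting. With liver, kidney and epididymis means as covariates and all arrays kept, its difference was -0.72 (limma, adjusted p = 0.0213). Without total ChREBP KO 2, the high array of its group, the difference was -0.54 with an adjusted p of 0.0442, and without the 5 arrays named above it was -0.61 with an adjusted p of 0.0645. Flt1 gave -0.22, Cdh5 -0.23, Tek -0.21, Emcn -0.21, Egfl7 -0.20, Vegfa -0.15, Tie1 -0.12, Pecam1 -0.05 and Vwf 0.02, all with intervals that held 0.

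The wild types of both lines, which serve as the controls above, were also compared (total WT minus β WT). None of the 10 genes was called, where 22% of all probes were (14.7% higher and 7.26% lower), and none separated the groups, as 5.06% of all probes did. Before adjustment 0 of the 10 and 34% of all probes had a limma p under 0.05. Tek gave the largest difference, 0.24 (interval -0.05 to 0.52, adjusted p = 0.237), and without β WT 8, the array on which Tek stood apart, it was 0.36 with an adjusted p of 0.0212. Pecam1, Tie1 and Vwf each gave 0.17, Emcn 0.14, Flt1 0.01, Vegfa -0.01, Cdh5 -0.03, Kdr -0.06 and Egfl7 -0.17. The median over the 9 endothelial genes was 0.14, with 0.05 over all probes, and it was -0.11 with the liver mean as a covariate. In the same comparison 7 of the 8 liver genes were called lower, with a median of -4.74.

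**Figure D2:**
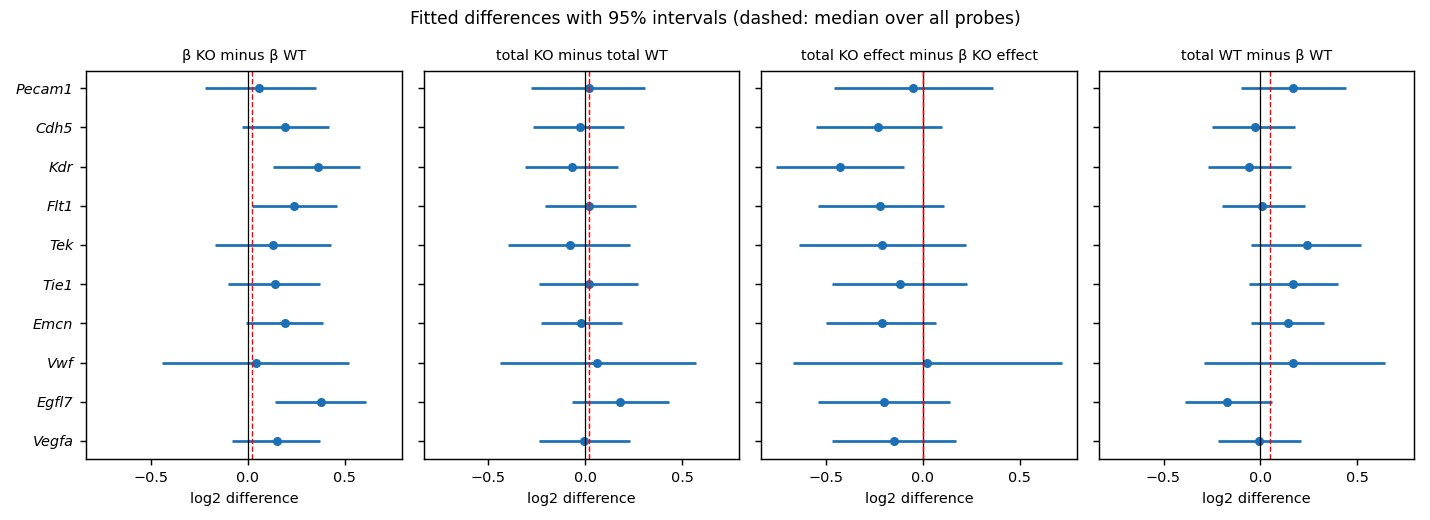
Fitted log2 differences (horizontal axes) of the 10 genes (vertical axis) with 95% intervals in the 4 comparisons; the solid line marks 0 and the dashed line the median over all probes. In ChREBPβ KO all 10 points lie right of 0, and the intervals of Kdr, Flt1 and Egfl7 exclude 0 before adjustment. The endothelial genes varied together over the arrays, so their signs are not independent.

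The mean level of the 9 endothelial genes on an array was 12.30 ± 0.20 in β WT, 12.48 ± 0.14 in ChREBPβ KO, 12.37 ± 0.13 in total WT and 12.38 ± 0.18 in total ChREBP KO (mean ± SD). The lowest value, 11.99, was that of β WT 3, which also had the highest liver mean.

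**Figure D3:**
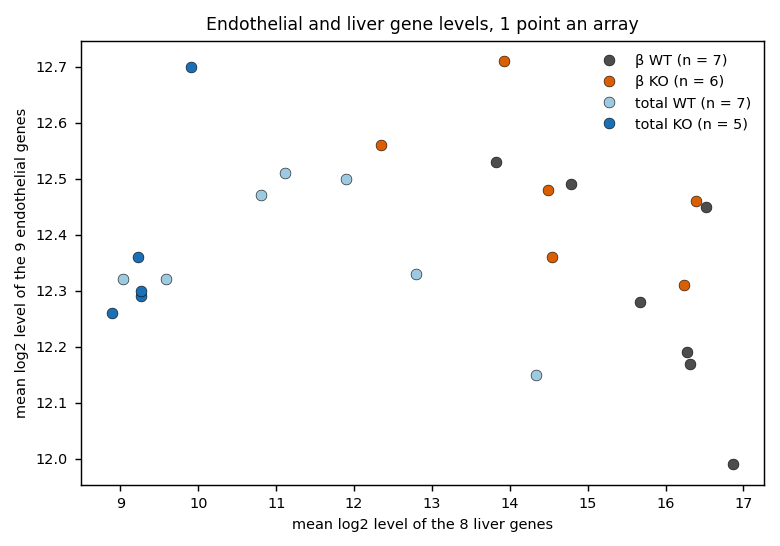
Mean log2 level of the 9 endothelial genes (vertical axis) against the mean log2 level of 8 liver genes (horizontal axis), 1 point an array and 1 colour a group. The liver mean spans 8.89 to 16.87 over the arrays while the endothelial mean spans 11.99 to 12.71.

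The sequences of 2 probes show what was read for the genes of several of the closest pairs below (mm9 positions). The Pecam1 probe (chr11:106540864-106540923, minus strand) and the Tie1 probe (chr4:118144132-118144191, minus strand) each stand for their gene alone.
Pecam1: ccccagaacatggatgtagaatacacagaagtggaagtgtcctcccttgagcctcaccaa
Tie1: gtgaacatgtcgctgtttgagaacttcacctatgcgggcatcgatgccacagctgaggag

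Vegfa had 4 probes, and their residuals correlated at 0.16 to 0.78 over the 25 arrays. In total ChREBP KO 1 of them gave 0.26 (interval -0.05 to 0.58, adjusted p = 0.368). Between the wild types another differed by 0.30 (interval 0.07 to 0.52, adjusted p = 0.0571) while the highest gave -0.01.

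One of the 18 member probes was called in any comparison. It was a Flt1 probe at chr5:148450688-148450747, at which the wild types differed by 0.30 (interval 0.09 to 0.51, adjusted p = 0.0387), and leaving out 1 array ended that call in 8 of 25 cases. The highest Flt1 probe, at chr5:148373791-148373850, gave 0.01 in the same comparison. Residuals of the 4 Flt1 probes correlated at 0.26 to 0.83 and those of the 3 Vwf probes at 0.81 to 0.83.

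The levels of the endothelial genes varied together from mouse to mouse after group means and wash batch had been removed. Of the 45 pairs among the 10 genes, 21 passed an adjusted p of 0.05 in a permutation test of r (two-sided, 100000 resamples, Benjamini-Hochberg over the 45 pairs, 25 arrays), all positive and all between endothelial genes. The permutation treats the residuals of the 25 arrays as exchangeable, although the fit leaves 18 degrees of freedom. The arrays share scale and composition of the tissue RNA, so that r describes the tissue and not a link between single genes. Pairs of other genes were not tested, so the 21 of 45 stand without a share over all pairs. Over the 36 endothelial pairs the median r was 0.51 (-0.19 to 0.88).

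Tie1 and Emcn had the highest r, 0.88 (rho = 0.83), and 0.82 without the 2 arrays farthest from the Tie1 median. Cdh5 with Tie1 gave 0.86, Pecam1 with Tie1 0.85, Pecam1 with Tek 0.82 and Cdh5 with Flt1 0.81. These 5 pairs reached the smallest p that the resamples can give, 1e-05 (permutation test, adjusted p = 9e-05). Within each line, the 13 arrays of the β line gave r = 0.91 for Tie1 and Emcn and the 12 of the total line 0.86.

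Kdr and Egfl7, the genes with the largest differences in ChREBPβ KO, also followed each other (r = 0.74, adjusted permutation p = 0.00027; 0.64 without 2 arrays). Flt1 with Egfl7 gave 0.72 and Kdr with Flt1 0.60, the latter 0.39 without 2 arrays. Kdr showed r = -0.03 with Tek and -0.19 with Vwf. Its median r with the other 8 endothelial genes was 0.24, beside 0.70 for Cdh5, 0.63 for Tie1, 0.63 for Emcn, 0.60 for Pecam1, 0.54 for Flt1, 0.53 for Tek and 0.42 for Egfl7.

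Vwf followed the others least, with a median r of 0.19 and 2 of 8 pairs called, those with Emcn (0.58) and Tek (0.54). Kdr with Vwf gave -0.65 in the β line and 0.34 in the total line. Without Vwf, 19 of the 28 remaining endothelial pairs were called and their median r was 0.60.

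Vegfa, the ligand, passed in none of its 9 pairs. Its median r was 0.12 (0.01 to 0.42), and the highest, with its receptor Kdr, was 0.42 (adjusted permutation p = 0.0676). These pairs used the highest Vegfa probe, whose residuals correlated at 0.59, 0.57 and 0.16 with those of the other Vegfa probes. Pairs with the other Vegfa probes were not tested.

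Without the 5 arrays with a high kidney or epididymal mean, 16 of the 36 endothelial pairs passed and their median r was 0.48. With the liver mean removed, 21 passed, with a median r of 0.48. Without the 2 arrays farthest from the median of a pair's first gene, r of the 21 pairs was 0.30 to 0.82, and Pecam1 with Flt1 went from 0.48 to 0.30.

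**Figure D4:**
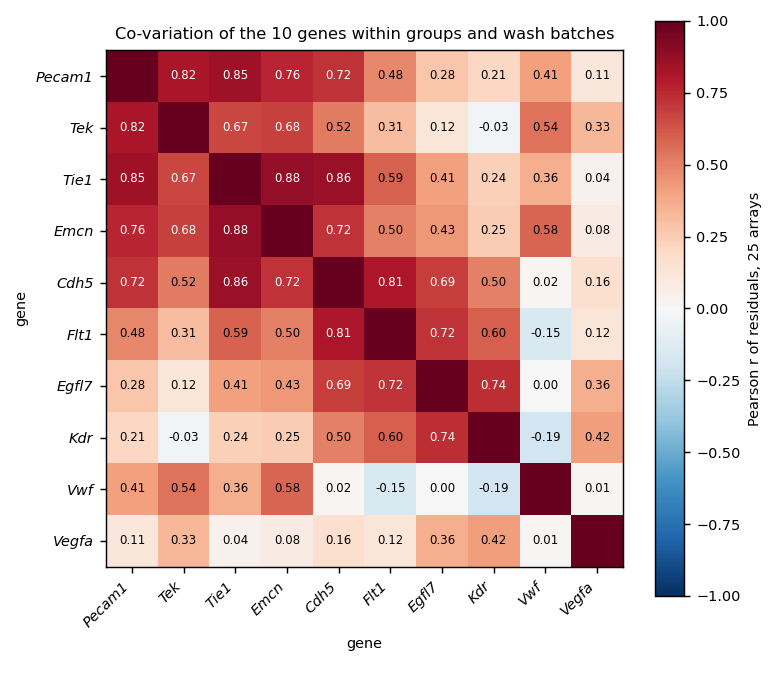
Pearson r between residual levels of each pair of the 10 genes over 25 arrays, after group and wash batch were removed; both axes list the genes and colour runs from -1 to 1. Tie1, Emcn, Cdh5, Pecam1 and Tek form the warmest block, up to 0.88, and the Vegfa pairs lie between 0.01 and 0.42.

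Because the endothelial genes varied together, their promoters were set side by side for GGAA, the core of the sites that ETS factors such as ERG and FLI1 bind in endothelial genes. RefSeq's promoter table (GRCm38.p6) had 10 start sites for 7 of the genes. The 250 bases upstream of the start are shown for the pair with the highest r, Tie1 (chr4:118489850-118490099, minus strand) and Emcn (chr3:137340828-137341077, plus strand), and for the VEGF receptors Kdr (chr5:75978456-75978705, minus strand) and Flt1 (chr5:147726012-147726261, minus strand), with GGAA, or TTCC where it lies on the other strand, in capitals.
Tie1: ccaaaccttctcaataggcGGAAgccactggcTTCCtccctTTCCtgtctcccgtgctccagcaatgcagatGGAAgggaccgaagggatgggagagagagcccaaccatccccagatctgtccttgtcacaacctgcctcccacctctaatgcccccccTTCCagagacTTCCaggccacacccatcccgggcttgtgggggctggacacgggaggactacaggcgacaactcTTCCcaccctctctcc
Emcn: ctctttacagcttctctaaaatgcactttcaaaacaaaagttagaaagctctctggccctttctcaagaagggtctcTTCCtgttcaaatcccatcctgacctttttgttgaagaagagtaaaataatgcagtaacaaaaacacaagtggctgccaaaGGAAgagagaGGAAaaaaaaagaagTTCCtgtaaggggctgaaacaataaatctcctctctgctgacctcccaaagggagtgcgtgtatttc
Kdr: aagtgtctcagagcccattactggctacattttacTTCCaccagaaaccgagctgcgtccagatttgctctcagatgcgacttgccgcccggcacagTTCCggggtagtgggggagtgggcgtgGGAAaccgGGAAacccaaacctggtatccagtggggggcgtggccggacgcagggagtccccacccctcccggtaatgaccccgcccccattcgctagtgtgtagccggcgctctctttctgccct
Flt1: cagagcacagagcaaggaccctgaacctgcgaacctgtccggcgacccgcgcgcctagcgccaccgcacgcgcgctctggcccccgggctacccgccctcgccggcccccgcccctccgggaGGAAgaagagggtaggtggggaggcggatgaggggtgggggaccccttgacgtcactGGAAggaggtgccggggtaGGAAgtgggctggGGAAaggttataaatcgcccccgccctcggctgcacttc

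The Tie1 window held 7 such matches, and 3.82% of the 32851 windows of that length held at least as many. Emcn, Kdr and Flt1 held 4 each, and 33.4% of windows held at least that many. Tek held 2 and the 3 Egfl7 starts 5, 3 and 1. The Vegfa starts held 6 and 2. GGAA or TTCC occurred in 93.4% of all windows, so that a match describes the sequence and marks no site. The letters CACGTG, an exact form of the E-box that reads the same on both strands, occurred in 0 of the 10 member windows and in 6.02% of all windows. Other forms of the element that ChREBP binds were not searched, so the count does not show their absence.

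The genes whose residuals were most like the mean of the 9 endothelial genes over the 25 arrays were Arhgap31 (r = 0.94), Elk3, Fgd5, Ccm2l and Tal1 (each 0.85), and Ldb2, Unc45b, Cyyr1, BM937688 and Map4k5 (each 0.84). None of these 10 was called in ChREBPβ KO, total ChREBP KO or the difference of both, and Cyyr1 was higher in total WT than in β WT (0.33, adjusted p = 0.0284). Those most like Vegfa were Zbtb1 (0.87), AK140216 (0.83), Nupl2 (0.81), Snx33 (0.79) and DV045877 (0.79).

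Across cell type lists, the median r with the endothelial mean was 0.63 for 35 other endothelial genes, of which 23 (65.7%) were above 0.5, beside 0.08 over 26370 genes outside the 10, of which 4.84% were above 0.5. It was 0.53 for arterial, 0.50 for venous and 0.38 for capillary endothelial genes, and 0.38 for mural genes of the vessel wall. It was 0.06 for lymphatic endothelium. The list of the VEGF and angiopoietin pathway gave 0.27, adipocyte genes 0.31, epididymal genes 0.23, progenitor and fibroblast genes -0.10, lymphocyte genes -0.16 and kidney genes -0.08. The lowest medians were those of macrophage (-0.29), erythroid (-0.32), liver (-0.40) and mesothelial genes (-0.42), and hypoxia targets gave -0.03. These correlations share the arrays and the quantile scale and are given as descriptions.

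The 35 other endothelial genes were then read in the same comparisons. In ChREBPβ KO none was called and 33 of 35 differences were positive, with a median of 0.22 and 16 unadjusted limma p-values under 0.05. Over all probes 0% were called, 9.02% had such a p-value, the median was 0.02 and 58% of differences were positive. The 35 genes varied together over the arrays, so these counts are not of independent observations. In total ChREBP KO 4 of 35 (11.4%) rose and none fell, where 8.79% of all probes were called (5.35% higher), and the median was 0.08. Plxnd1, a semaphorin receptor of endothelial cells, rose by 1.22 (interval 0.91 to 1.53, adjusted p = 8.26e-06). Ramp2, the partner of the adrenomedullin receptor, rose by 0.64 (0.39 to 0.89, adjusted p = 0.00121), and Nos3, the endothelial nitric oxide synthase, by 0.42 (0.23 to 0.62, adjusted p = 0.00436). Sox7, a transcription factor of vessel formation, rose by 0.56 (0.20 to 0.91, adjusted p = 0.0454), a call that ended on leaving out 1 array in 18 of 25 cases. With the liver mean as a covariate Plxnd1 (1.05) and Ramp2 (0.47) were still called, and Nos3 (0.29, adjusted p = 0.0598) and Sox7 (0.47, adjusted p = 0.202) were not.

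The rise of Plxnd1 in total ChREBP KO exceeded its difference in ChREBPβ KO (0.39, adjusted p = 0.417) by 0.83 (interval 0.40 to 1.26, adjusted p = 0.027). It was the only 1 of the 35 genes called in the difference of both KO effects, where 3.21% of all probes were. Without the 5 arrays that difference was 0.57 (adjusted p = 0.118). Its adjusted p was 0.0531 without ChREBPβ KO 2, 0.0586 without total ChREBP KO 2 and 0.0712 without total ChREBP KO 1. Between the wild types, where 22% of all probes were called, 4 of the 35 genes (11.4%) were. Podxl (0.39), Nos3 (0.31) and Plvap (0.50) were higher in the total line, and Cd93 was lower (-0.25), a call that ended on leaving out 1 array in 15 of 25 cases.

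**Figure D5:**
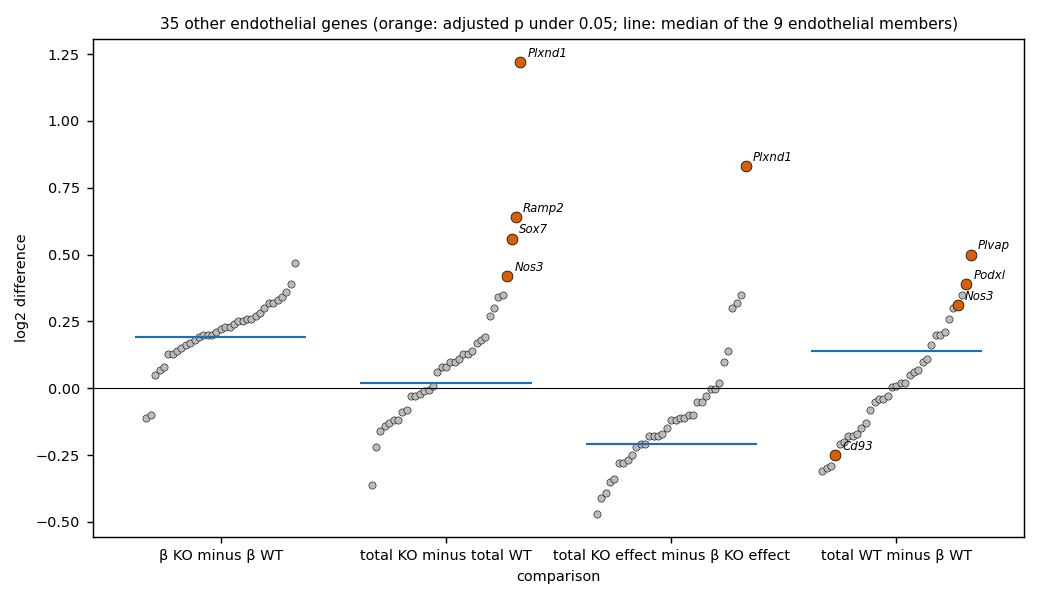
Log2 differences (vertical axis) of 35 other endothelial genes in the 4 comparisons (horizontal axis), 1 point a gene; orange points have an adjusted p under 0.05 and the line marks the median of the 9 endothelial members. In ChREBPβ KO 33 of 35 points lie above 0, where 58% of all probes had a positive difference, and none is orange. The genes varied together over the arrays, so their signs are not independent. In total ChREBP KO Plxnd1 stands highest at 1.22.

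Among 26 genes of the VEGF and angiopoietin pathway, members excluded, none was called in ChREBPβ KO (7 unadjusted limma p-values under 0.05, median 0.16). Over all probes 9.02% had such a p-value and the median was 0.02. In total ChREBP KO 4 of the 26 genes rose and 1 fell (19.2%, where 8.79% of all probes were called). Egln3, a prolyl hydroxylase that marks HIF-α for degradation, fell by 1.17 on the log2 scale (adjusted p = 3.02e-05). Hif1a, which encodes that substrate, rose by 0.37 (adjusted p = 0.00673). Vegfb, a ligand of Flt1, rose by 0.42 (adjusted p = 0.0109), and Nrp1, a co-receptor of Kdr, by 0.30 (adjusted p = 0.0198). Fgf2, named as the remaining call after its value was seen, rose by 0.48 (adjusted p = 0.0348). Leaving out 1 array ended the Fgf2 call in 7 of 25 cases and the Nrp1 call in 2. With the liver mean as a covariate Egln3 (-1.07) and Hif1a (0.38) were still called, whereas Vegfb (0.31, adjusted p = 0.114), Nrp1 (0.21, adjusted p = 0.174) and Fgf2 (0.25, adjusted p = 0.318) were not. Flt1, the receptor of VEGF-B, was at 0.02 and Kdr at -0.07 in the same comparison.

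The KO effects differed for 2 of the 26 genes, where 3.21% of all probes were called. These were Egln3 (-1.09, adjusted p = 0.00474) and the Notch ligand Jag1 (-0.53, adjusted p = 0.011). In the wild types 3 pathway genes were higher in the total line and 2 lower (19.2%, where 22% of all probes were called): Egln3 (0.89), Egln1 (0.21) and Angpt1 (0.89, adjusted p = 0.0372), the main ligand of Tek, against Fgf2 (-0.71) and Nrp1 (-0.21). Leaving out 1 array ended the Nrp1 call in 17 and the Angpt1 call in 10 of 25 cases. Total WT enters this comparison, the total ChREBP KO effect and the difference of both KO effects. Egln3, Fgf2 and Nrp1, called in total ChREBP KO and between the wild types, had opposite signs there. The part of the total WT level in these values was not tested.

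By vessel type, no gene of the lists was called in ChREBPβ KO. The single genes below stand beside 8.79% of all probes called in total ChREBP KO, 3.21% in the difference of both KO effects and 22% between the wild types. In total ChREBP KO Ephb4, a receptor of venous endothelium, rose by 0.92 (adjusted p = 1.65e-05) as 1 of 5 venous genes, 0.73 more than in ChREBPβ KO (adjusted p = 0.0127). Its probe lies 2.2 Mb from that of Mlxipl on chromosome 5, so that the targeted locus and flanking sequence inherited with it cannot be told apart. Flt1 lies 12.8 Mb and Kdr 59.3 Mb from it on the same chromosome. Sgk1 fell by 0.58 on the log2 scale (adjusted p = 0.0192) as 1 of 6 capillary genes, and 0 of 6 arterial and 0 of 7 lymphatic genes were called. Rgs5 rose by 0.33 (adjusted p = 0.0387) as 1 of 10 mural genes. Among the wild types Sgk1 (1.09), Nts of the lymphatic list (0.83) and Cspg4 of the mural list (0.64) were higher in the total line and Timp4 of the capillary list was lower (-1.06). Sgk1 thus had opposite signs in total ChREBP KO and between the wild types, which share the total WT arrays.

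For the other cells of the pad, no gene of any list was called in ChREBPβ KO. The counts that follow stand beside 8.79% of all probes called in total ChREBP KO, 3.21% in the difference of both KO effects and 22% between the wild types. In total ChREBP KO 3 of 13 adipocyte genes rose and 1 fell, and 1 of 11 progenitor and fibroblast genes fell. Of 10 hypoxia targets 2 rose and 2 fell (Egln3 is on that list too). Of 8 liver genes 1 rose, Cyp2e1 (0.95), and 1 fell, Fgb (-3.89). Cyp2e1 did not follow the other liver genes, whose differences there were -1.27 to -3.89. None of 12 macrophage, 11 lymphocyte, 9 mesothelial, 4 erythroid, 5 kidney or 3 epididymal genes was called there. In the difference of both KO effects the adipocyte list had 1 higher and 1 lower, and the hypoxia targets 1 higher and 2 lower. The liver list had 1 higher there, Cyp2e1 (1.43). In the wild-type comparison 3 adipocyte genes, 1 progenitor gene, 2 erythroid genes, 1 epididymal gene and 3 hypoxia targets were higher in the total line. Lower there were 1 adipocyte gene, 1 lymphocyte gene, 1 hypoxia target, 7 liver genes and 3 kidney genes. Cyp2e1, the liver gene not called between the wild types, differed by -0.07. The part of any of these in the values of the 10 genes was not tested.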

How the data were processed

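Single-colour Agilent arrays (SurePrint G3 Mouse GE v2, 8x60K; 200 ng of total RNA, Cy3) of pgWAT from 25 mice were analysed. The authors scanned them, extracted the spots with Agilent Feature Extraction 10.10.1.1, imported them with limma (version not given in the sources used here) and deposited a series table of log2 values, quantile-normalised with preprocessCore, for 40561 probes, with 23 empty cells. The deposited scanner files hold the raw intensity of each spot, whose median per array over gene probes was 72 to 108 against a background median of 15 to 22; the number of arrays limits the precision. Each column of the table correlated with the log2 raw intensity of its array at 0.99982 or more, and all column medians were 7.96, so quantile scaling can hide a shift common to all genes.

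Groups were taken from the sample titles. The labels name separate samples but not separate litters, so p-values measure the spread between these samples. All probes were fitted together with limma 3.58.1 (R 4.3.3) on 4 groups and 4 wash batches, with 18 residual degrees of freedom, and called at a Benjamini-Hochberg adjusted p under 0.05 over all probes; intervals are at 95% before adjustment. Correlations used residuals of that fit and permutation tests in Python 3.11.15 with scipy 1.17.1, numpy 2.4.6, pandas 2.3.3 and matplotlib 3.10.9. The members and the 18 gene lists (203 genes, 190 matched to the table by array name or RefSeq) were chosen with earlier results of these data known. Named were all members with every probe, up to 4 called genes with the lowest adjusted p per list of vessel genes and comparison, and the 10 and 5 genes most like the endothelial mean and Vegfa. Lists were counted without a test. The fit and the pair test were tested on simulated data. Probe positions are mm9, from the array files; promoters are RefSeq's, GRCm38.p6. Same-numbered mice of a line did not deviate together (r -0.43 to 0.39 over 9 pairs), so numbers were not taken to pair them. Alternatives were another background correction, scaling, gene summary, filter, batch or weight, each array left out, and covariates for RNA of other organs.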

Additional observations from a re-analysis of the deposited data

Results flagged for a closer look

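In the total ChREBP KO group replicate 2 stood apart from its 4 fellows for 3 genes: Pecam1 at 10.38 (others 9.79 to 9.86), Kdr at 13.45 (12.90 to 12.98) and Vegfa at 13.53 (13.18 to 13.25). In β WT replicate 8 stood apart for Tek at 10.81 (others 9.73 to 10.12). The gap to the nearest array exceeded Dixon's 95% critical value in these 4 of 40 checks, and chance gives about 1 in 20.

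The effect of total loss differed from that of β loss, by the interaction term of the limma fit, for Plxnd1 (0.83), Jag1 (-0.53), Egln3 (-1.09) and Ephb4 (0.73). Of all probes 3.21% were called by that term. None of the 10 members passed that test with all arrays.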

How the results depend on the processing

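Of 1520 alternative values of a member, 4 passed the threshold and 96 changed sign. No member was called in ChREBPβ KO or total ChREBP KO under any alternative. Between the wild types 1 was with array weights (Tek 0.34, adjusted p = 0.0373) and 0 to 1 on leaving out an array (Tek without β WT 8). In the difference of KO effects 1 was with liver, kidney and epididymis means as covariates (Kdr -0.72, adjusted p = 0.0213) and 0 to 1 on leaving out an array (Kdr without total ChREBP KO 2). The median over 9 genes ranged from 0.11 to 0.24 in ChREBPβ KO, -0.11 to 0.05 in total ChREBP KO, -0.32 to -0.14 for the difference and -0.11 to 0.19 between the wild types, where the -0.11 came with the liver covariate. Called pairs numbered 15 to 22. Over all probes 0 were called in ChREBPβ KO, but 2 from the scanner values, 2 with normexp, 48 with array weights, 19 with 3 covariates and 0 to 80 on leaving out an array (80 without ChREBPβ KO 4). Array weights called 5393 in total ChREBP KO and 2161 in the difference. Between the wild types 2964 were called with the liver covariate, 0 with 3 covariates and 3948 without 5 arrays.

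With replicate number as a block the medians were 0.23, -0.05, -0.25 and 0.19 and no member was called. Over all probes 0, 2484, 710 and 7805 were called, beside 0, 3564, 1302 and 8912 without it. The block ended the calls of Sox7 (0.45), Hif1a (0.34), Cd93, Nrp1 between the wild types, the Flt1 probe (0.32), and of Plxnd1 (0.81) and Egln3 (-0.99) in the difference. It changed sign in total ChREBP KO for Pecam1 -0.02, Tie1 -0.03 and Vwf -0.05, in the difference for Vwf -0.14 and between the wild types for Cdh5 0.03.

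Other sign changes follow by setting; the cause was not tested. Total ChREBP KO: Vegfa 0.0044 (scanner); Pecam1 -0.01 and Cdh5 0.02 (75th percentile); Pecam1 -0.03 and Tie1 -0.02 (weights); Flt1 -0.03 and Vegfa 0.04 (probe mean); Pecam1 -0.02, Flt1 -0.04, Tie1 -0.06 and Vwf -0.12 (liver covariate); Pecam1 -0.03, Flt1 -0.11, Tie1 -0.10 and Egfl7 -0.04 (3 covariates); Tie1 -0.00047 and Vwf -0.0026 (without 5 arrays). ChREBPβ KO: Vwf -0.06 (liver), Vwf -0.23 (3 covariates), and Pecam1 -0.02, Tek -0.01 and Vwf -0.01 (without 5 arrays). Difference: Vwf -0.17 (weights), -0.01 (probe mean) and -0.06 (liver), and Pecam1 0.02 (without 5 arrays). Wild types: Kdr 0.03 and Vegfa 0.07 (75th percentile), Cdh5 0.01 and Vegfa 0.05 (weights), Vegfa 0.06 (probe mean), Flt1 -0.11, Tek -0.02, Emcn -0.04 and Vwf -0.23 (liver), Cdh5 0.01, Kdr 0.14 and Vegfa 0.09 (without 5 arrays), and with 3 covariates Cdh5 0.10, Kdr 0.54, Tek -0.03, Vwf -0.96, Vegfa 0.19, Plvap -0.04, Cd93 0.22, Angpt1 -0.38 and the Flt1 probe -0.01.

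Leaving out 1 array changed sign within these ranges. Total ChREBP KO: Cdh5 -0.11 to 0.01, Emcn -0.11 to 0.02, Flt1 -0.06 to 0.06, Kdr -0.18 to 0.03, Pecam1 -0.09 to 0.08, Tie1 -0.08 to 0.07, Vegfa -0.07 to 0.05 and Vwf -0.08 to 0.16. Wild types: Cdh5 -0.08 to 0.02, Flt1 -0.04 to 0.07, Kdr -0.11 to 0.01 and Vegfa -0.07 to 0.06. ChREBPβ KO: Pecam1 -0.02 to 0.16 and Vwf -0.09 to 0.19. Difference: Pecam1 -0.16 to 0.03 and Vwf -0.14 to 0.14. Calls among other endothelial genes then ranged from 3 to 6 in total ChREBP KO, 3 to 6 between the wild types and 0 to 3 in the difference, and under the other settings from 1 to 7, 0 to 7 and 0 to 2. For pathway genes the ranges were 3 to 7, 3 to 6 and 2 to 3, and 2 to 10, 0 to 8 and 1 to 4.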
